A study of Rattus norvegicus with 6 samples.

Results

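The genes described here encode the nuclear subunits of oxidative phosphorylation in RUCA-I, a rat cell line grown from a carcinoma of the uterine lining. They were taken by symbol from a deposited table of gene expression, as every tested row named Ndufa, Ndufb, Ndufc, Ndufs or Ndufv with a number, Sdha to Sdhd, Uqcr, Cyc1, Cycs, Cox4 to Cox8 or Atp5. This gave 77 symbols among 26459 tested rows, and the longest locus stood for a symbol with several rows. Both groups were untreated RUCA-I cells of Lewis strain origin, harvested near confluence. WT cells carry the wild type genotype and were sampled as 3 batches. KO cells are labelled miR-203 -/- and come from 3 lines, each made on its own, so loss of miR-203 and the making of the lines cannot be told apart. The loss itself was not checked here. The microRNA is known mainly for its role in skin. Its main mature strand in RefSeq (GRCr8, chr6:137020756-137020777, plus strand) is shown because its loss defines the groups, with the seed, bases 2 to 8, in capitals.
rno-miR-203a-3p: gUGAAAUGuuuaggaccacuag

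Oxidative phosphorylation passes electrons from NADH and succinate to oxygen in the inner mitochondrial membrane and uses the proton gradient so made to produce ATP. Complex I (NADH dehydrogenase) and complex II (succinate dehydrogenase) reduce coenzyme Q, complex III passes the electrons to cytochrome c, complex IV reduces oxygen, and complex V is the ATP synthase. All but complex II also hold subunits encoded by mitochondrial DNA. The mitochondrial row of the table has no usable value, so those subunits are not analysed here.

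Levels are in FPKM, a read count corrected for transcript length and library size, and the authors give 1 pooled value per group of 3 samples. No SD and no value per sample is given with it, so the spread between samples cannot be seen here, and the read depth is unknown. A gene counted as changed where q, the adjusted p of the authors' own Cuffdiff test, was under 0.05. Ratios are log2((KO + 1)/(WT + 1)), computed where the mean of both groups was at least 1 FPKM. Of the epithelial markers, Krt8 (204 FPKM in WT and 241 in KO cells), Krt18 (103 and 121), Cdh1 (152 and 144), Epcam (501 and 419) and Cldn4 (213 and 228) were expressed, and Krt19 had no tested row. Markers of other cell types had a tested row for 1 of 5 fibroblast genes, 1 of 5 leukocyte genes, 0 of 4 endothelial genes and 2 of 6 muscle genes, with summed levels of 0 to 10.2 FPKM in WT and 0 to 8.74 in KO cells. Such bulk values cannot tell fewer expressing cells from less RNA per cell.

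No member passed the test. By q in the authors' deposited table, 0 of 77 members were called, where 1.05% of all tested rows were (0.491% higher in KO cells and 0.556% lower), and the smallest q of a member was 0.418. Before adjustment, p in the authors' deposited table was under 0.05 for 2 members, Atp5e and Atp5s, both higher in KO cells, where 6.0% of all tested rows reached that and 3.25% did so as higher. Of the 72 members with at least 1 FPKM, 51 were higher in KO cells and 21 lower, a share of 70.8% higher, against 51.1% of all tested rows of that level and 46.0% of rows of at least 10 FPKM. Their median log2 ratio was 0.052, and that of all tested rows of at least 1 FPKM was 0.0046. The ratios of the 72 ran from −0.35 to 0.39, and 43 of them (59.7%) were within 0.1 of 0, against 42.8% of the rows of at least 1 FPKM and 51.2% of those of at least 10 FPKM. These directions hold for FPKM as deposited and turn where all rows of both groups are brought to the same sum of FPKM, called the sum scaling below.

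The sum of FPKM over all rows was 928381 in WT and 1039930 in KO cells, and loci under 300 bp made up 525102 and 615613 of it. Most of the difference comes from 3 rows, of 45, 46 and 9497 bp, which went from 4639.4 to 56650.7 FPKM, from 2279 to 37327 and from 1520 to 24673. Under the sum scaling the median of all tested rows of at least 1 FPKM moved to −0.14, and the members' median moved to −0.11 with 13.9% of them higher. Without loci under 300 bp in the sum, the medians were −0.064 for all rows and −0.02 for the members, with 41.7% higher. Without the row of 45 bp in the sum, the members' median was −0.036 with 34.7% higher. Without all 3 rows the sums were 919942 and 921284, and the members' median was 0.050 with 70.8% higher, as deposited. None of the 3 rows is a member. They were picked, after seeing the data, for the largest rise in KO cells, so leaving them out had to move the result toward the deposited one. Which scaling is right was not tested. Relative to the median of all tested rows, the members' median was 0.047 as deposited and between 0.032 and 0.064 under the 18 alternatives tried. The sign of the members' median itself turned in 3 of them. Bringing the groups to the same sum or centre shifts members and all rows nearly alike. The other settings keep most of the same ratios. This difference could therefore hardly change, and its steadiness is no support for a difference between the groups. For complexes and lists, directions below are as deposited, and the median under the sum scaling over all rows is given in brackets.

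**Figure D1:**
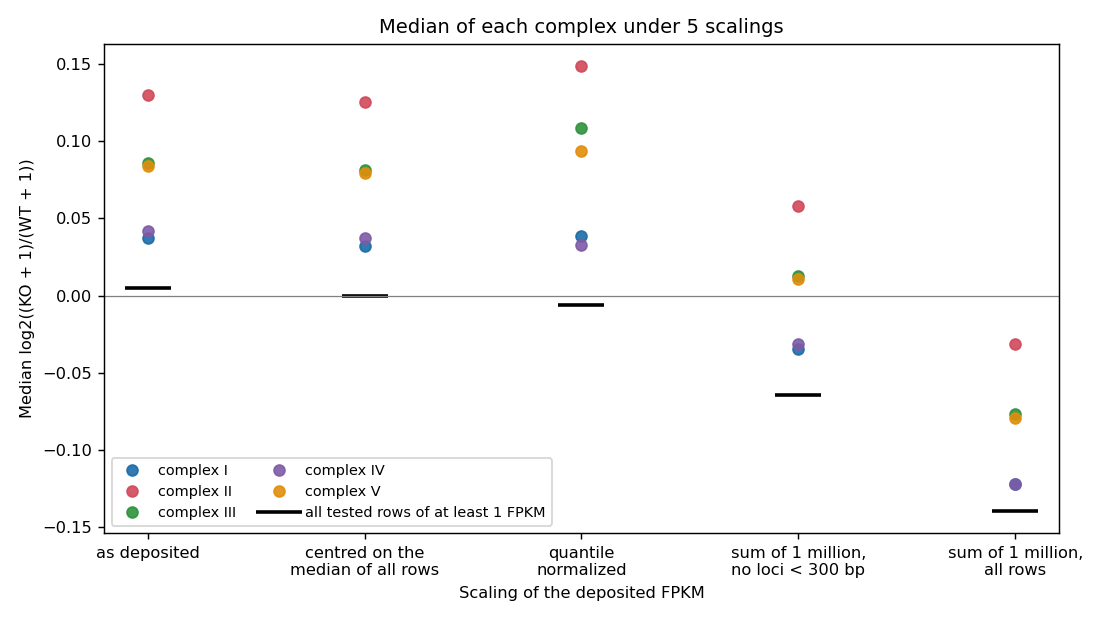
Median log2 ratio of the subunits of each complex (coloured points) and of all tested rows of at least 1 FPKM (black bars) under 5 scalings of the deposited FPKM. As deposited the medians lie between 0.037 and 0.13, and with both groups brought to the same sum over all rows they lie between −0.12 and −0.032, above the black bar at −0.14.

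The called rows show the sizes of change that the authors' test did call, which is not a limit of detection. Among 8434 rows of at least 10 FPKM and above 0 in both groups, 116 were called in the authors' deposited table, and the smallest ratio of KO over WT among them was 0.38 on the log2 scale, or 1.3-fold. The largest ratio of a canonical subunit at that level, without a pseudocount, was 0.27, and the median size was 0.086. Differences of the canonical subunits were thus smaller than any that the authors' deposited table calls at this level. Ndufv3-ps1, a pseudogene taken by the symbol rule, had a difference of 0.39 in size, above the smallest called one, and was not called.

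**Figure D2:**
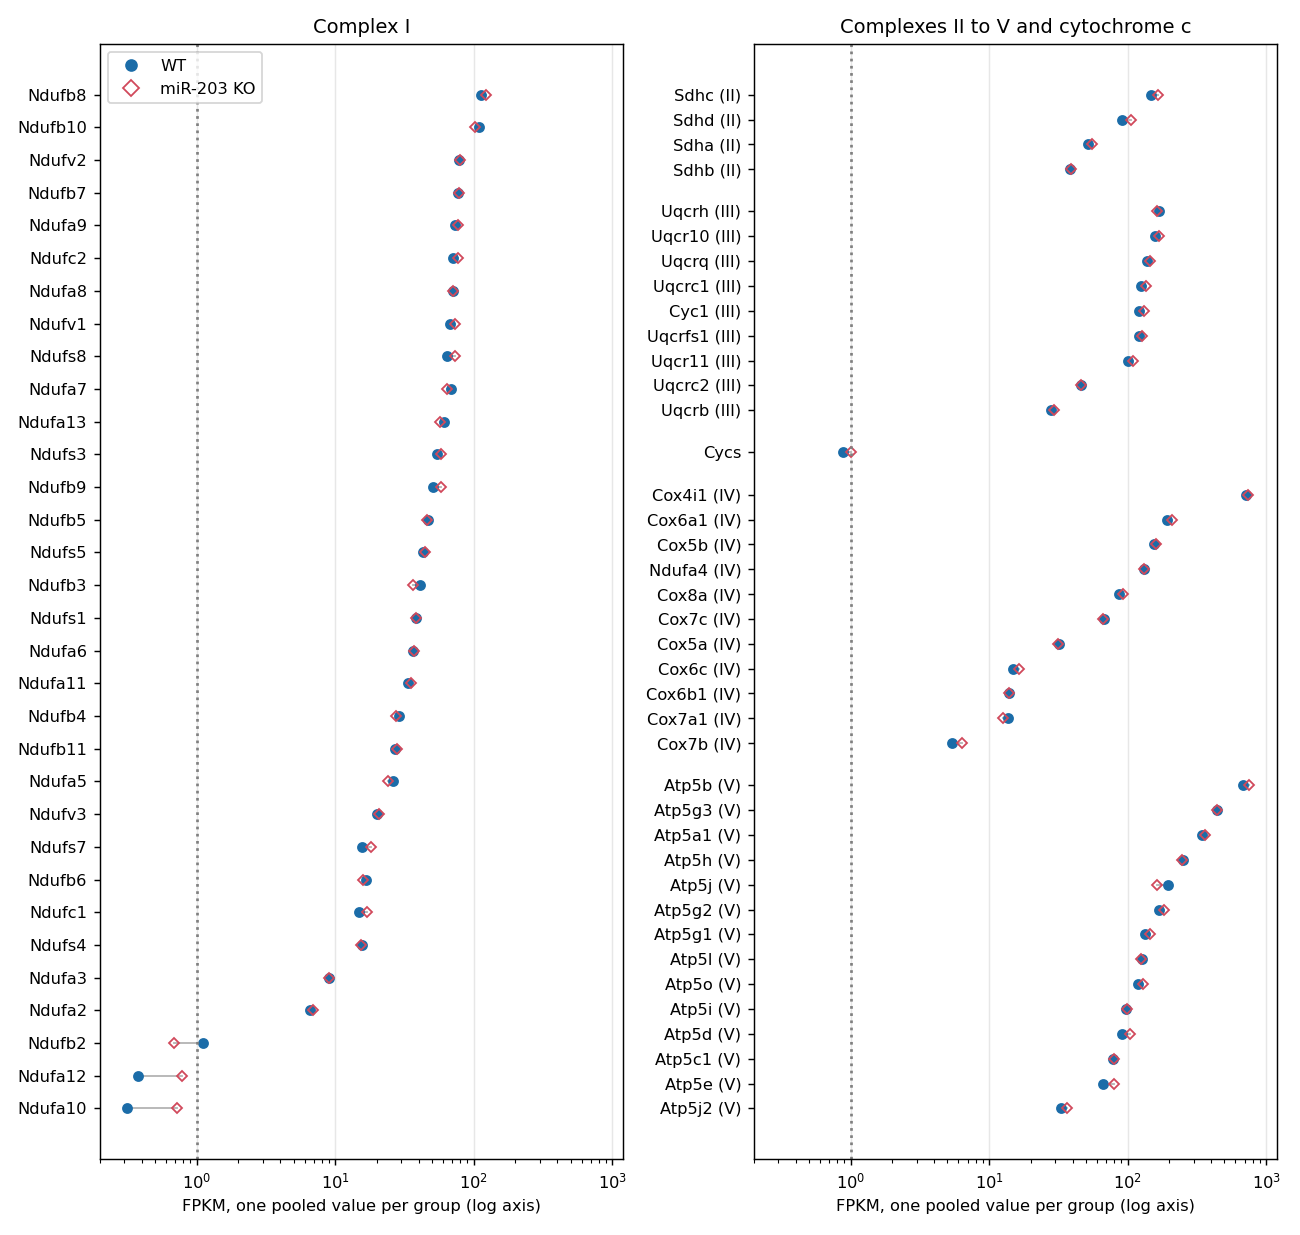
FPKM of the canonical subunits (log axis, 1 subunit of complex I not shown) in WT (filled circles) and miR-203 KO cells (open diamonds), 1 pooled value per group with no error, complex I on the left and the rest on the right, complex in brackets. The dotted line marks 1 FPKM; symbols of both groups overlap for most subunits, and Ndufb2, Ndufa12, Ndufa10 and Cycs have means below the line.

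Expression spanned more than the difference between groups did. The highest members were Cox4i1, the nuclear subunit 4 of complex IV (719 FPKM in WT and 740 in KO cells), and Atp5b, the catalytic beta subunit of ATP synthase (684 and 751). The median subunit stood at 41.9 FPKM in WT cells for complex I, 71.3 for complex II, 121 for complex III, 67.8 for complex IV and 130 for complex V. In KO cells the same medians were 41.4, 80.6, 130, 66.1 and 136 FPKM. Subunits of complexes III and V thus had the higher levels, and the order of the 5 medians was the same in both groups. No test stands behind these differences between complexes.

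Promoters of these genes are textbook targets of NRF-1, of the ETS factor GABP and of YY1, so their letters were searched on both strands in RefSeq promoters of 300 bases (GRCr8, 250 before to 50 after the start), which were found for 66 members. The NRF-1 palindrome, spelled by the capitals in the windows below, occurred in 4 of 66 (6.06%), against 0.932% of 27457 promoters of all genes. The same letters with any base at the sixth place, which includes the palindrome, occurred in 13 (19.7%) against 4.71%. The ETS core CCGGAAG occurred in 18 (27.3%) against 9.22%, and the YY1 core AAGATGGCG in 9 (13.6%) against 1.93%. All genes include non-coding ones, and base composition was not matched. The 4 upstream windows that hold the palindrome are shown because they carry the best known regulatory element of the pathway. The first palindrome of each is in capitals. In Ndufa11 another copy overlaps its end and runs on into the lower case letters. They lie at chr7:135678240-135678299 (minus strand) for Atp5g2, chr11:44657508-44657567 (minus) for Atp5o, chr14:1464759-1464818 (plus) for Atp5i and chr9:1637492-1637551 (plus) for Ndufa11, all in GRCr8, and are printed on the strand of the gene.
Atp5g2: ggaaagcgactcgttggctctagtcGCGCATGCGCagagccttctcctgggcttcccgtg
Atp5o: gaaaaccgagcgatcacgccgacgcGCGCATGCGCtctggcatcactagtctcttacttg
Atp5i: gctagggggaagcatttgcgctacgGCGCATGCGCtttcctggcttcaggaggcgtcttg
Ndufa11: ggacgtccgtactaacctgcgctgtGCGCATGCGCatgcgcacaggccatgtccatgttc
The palindrome in capitals begins 56, 59, 76 and 97 bases before the start site in that order. These 4 genes stood at 169 and 182 FPKM (Atp5g2, WT and KO), 118 and 128 (Atp5o), 97.2 and 98.3 (Atp5i) and 33.7 and 35.2 (Ndufa11). By value all 4 were higher in KO cells as deposited, by ratios of 0.016 to 0.11, which the sum scaling turns, and none was called.

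Complex I had 30 subunits of at least 1 FPKM, of which 18 were higher and 12 lower in KO cells, with a median log2 ratio of 0.037 (−0.12 under the sum scaling) and 0 members with p under 0.05 in the authors' deposited table. Its 7 core subunits, which bind NADH, the flavin and the iron-sulfur clusters, were higher in 6 cases, with a median of 0.088 (−0.072 under the sum scaling). Ndufs7, which binds the last cluster before coenzyme Q, measured 15.5 FPKM in WT cells and 18.2 in KO cells (locus in rn6, as for all loci below, chromosome 7, 12316588 to 12326233), the largest ratio of the complex at 0.21 (p = 0.0716 and q = 0.918 in the authors' deposited table). Ndufs8, another iron-sulfur subunit, had 63.9 and 72.7 FPKM. Ndufv1, the flavin-binding NADH site, had 66.9 and 73.5, and Ndufv2 had 78.1 and 78.9. Ndufs3, also of the quinone-binding arm, had 54.1 and 57.6 FPKM. Ndufs1, the largest core subunit, was the core member that was lower, at 38.4 and 38.0 FPKM. The rows of Ndufs1, Ndufs3 and Ndufs8 lie on loci that other genes share, so reads of those genes may enter them.

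The 23 accessory subunits of complex I were split, with 12 higher and 11 lower and a median of 0.029 (−0.13 under the sum scaling). By position, 4 of 6 subunits of the NADH-binding arm, 6 of 8 of the quinone-binding arm and 8 of 16 of the membrane arm were higher, with medians of 0.029, 0.053 and 0.013 (−0.13, −0.11 and −0.14 under the sum scaling). Differences between these arms were not tested. The most abundant were Ndufb8 (113 FPKM in WT and 123 in KO cells) and Ndufb10 (109 and 102), both of the membrane arm, and their ratios had opposite signs, 0.12 and −0.095. Ndufb9 (50.6 and 58.1 FPKM) had the next largest ratio at 0.20, with p = 0.0879 in the authors' deposited table. Ndufb3, also of the membrane arm (chromosome 9, 65478492 to 65488805), had the lowest ratio of the complex at −0.17, with 40.8 and 36.3 FPKM. Ndufa5 of the quinone-binding arm had 26.3 and 24.1 FPKM.

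Complex II is the only complex whose subunits are all nuclear, and all 4 were higher in KO cells, with a median of 0.13 (−0.032 under the sum scaling) and 0 members with p under 0.05 in the authors' deposited table. Sdhc and Sdhd, which anchor the enzyme in the membrane and bind coenzyme Q and haem, showed the larger ratios. Sdhc (chromosome 13, 89513503 to 89518931) had 148 FPKM in WT and 166 in KO cells, a ratio of 0.17 with p = 0.120 in the authors' deposited table. Sdhd (chromosome 8, 55028068 to 55037591) had 90.8 and 105.8 FPKM, a ratio of 0.22 with p = 0.0514 and q = 0.835 in the authors' deposited table. The matrix subunits, the flavoprotein Sdha (51.8 and 55.3 FPKM) and the iron-sulfur protein Sdhb (38.3 and 38.7), had ratios of 0.092 and 0.014. Under the sum scaling both anchor genes were still higher (median 0.031) and both matrix genes lower (median −0.11). By level, the anchor genes stood at higher levels than the catalytic genes in both groups.

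Complex III had 8 of 9 subunits higher, with a median of 0.086 (−0.077 under the sum scaling). Among the 8 is Uqcrb on its longest locus, but a more abundant row of that symbol was lower and is described in the closing section. With the most abundant row of each symbol, 77.8% of the complex was higher. The interquartile range was 0.191 for all tested rows of at least 10 FPKM and 0.247 for those of at least 1 FPKM. That of complex III, over 9 subunits, was 0.027, the smallest of the 5 complexes. Its redox subunits, cytochrome c1 (Cyc1, 121 FPKM in WT and 130 in KO cells) and the Rieske iron-sulfur protein (Uqcrfs1, 120 and 126), had ratios of 0.10 and 0.074. The most abundant were Uqcrh, the hinge protein (167 and 163), which was the lower one, and Uqcr10 (158 and 167). Uqcr11 had the largest ratio at 0.13 (99.8 and 109.6 FPKM, p = 0.249 in the authors' deposited table). The core proteins Uqcrc1 (126 and 136) and Uqcrc2 (46.0 and 46.1) had ratios of 0.11 and 0.0037, and 0 subunits had p under 0.05 in the authors' deposited table. Cycs, soluble cytochrome c, was listed at 0.880 and 0.9995 FPKM on a locus of 632 bp, below the level used for ratios, and whether other rows hold its reads was not tested.

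Complex IV had 11 subunits of at least 1 FPKM, 8 higher and 3 lower in KO cells, with a median of 0.042 (−0.12 under the sum scaling) and 0 members with p under 0.05 in the authors' deposited table. After Cox4i1, Cox6a1 was the most abundant (193 FPKM in WT and 209 in KO cells, ratio 0.11), followed by Cox5b (155 and 160). Ndufa4, named for complex I but a subunit of complex IV, had 131 and 132 FPKM. Cox7b on the X chromosome (77070801 to 77071891), the lowest of the 11, had the largest ratio at 0.21 (5.37 and 6.35 FPKM, p = 0.162 in the authors' deposited table). Cox7a1, the heart and muscle form of subunit 7a, had the lowest ratio at −0.12 (13.7 and 12.5 FPKM). Cox8a had 86.6 and 92.5 FPKM. The alternative forms Cox4i2, Cox6a2, Cox6b2, Cox8b and Ndufa4l2, and the common form Cox7a2, had no tested row under their symbols, so shares of the paired forms could not be computed. Cox6b1 on its longest locus had 13.9 and 14.0 FPKM, but a shorter row of the same symbol was far higher and is described in the closing section.

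Complex V had 14 subunits, 11 higher and 3 lower in KO cells, with a median of 0.084 (−0.079 under the sum scaling). None was called, and Atp5e was the member with p under 0.05 in the authors' deposited table. All 5 subunits of the F1 head and central stalk were higher, with a median of 0.13 (−0.03 under the sum scaling). Atp5b had 684 FPKM in WT and 751 in KO cells (p = 0.253 in the authors' deposited table), and the alpha subunit Atp5a1, its partner in the catalytic head, had 345 and 361. The delta subunit Atp5d had 90.3 and 104 FPKM, a ratio of 0.20 with p = 0.0655 in the authors' deposited table, and the gamma shaft Atp5c1 had 77.8 and 79.4. The epsilon subunit Atp5e (chromosome 3, 172563102 to 172566029) had 65.9 and 79.2 FPKM, a difference of 20.2% and the largest ratio of any canonical subunit of at least 1 FPKM at 0.26 (p = 0.0185 and q = 0.573 in the authors' deposited table). Of the 40 nearest rows of at least 5 FPKM, 20 on either side, 31 were higher as deposited with a median of 0.12, and 16 under the sum scaling with a median of −0.027, and none was called, with p under 0.05 for 4 in the authors' deposited table. As deposited it was the highest local median of the 77 members, whose other local medians ran from −0.093 to 0.084. The part of its neighbourhood in the value of Atp5e was not tested.

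The 3 genes of the c ring, which encode the same mature protein, were all higher as deposited and all lower under the sum scaling, with 132 and 144 FPKM for Atp5g1, 169 and 182 for Atp5g2 and 439 and 444 for Atp5g3. Atp5g3 gave 59.3% of their sum in WT cells and 57.6% in KO cells, Atp5g2 22.9% and 23.7%, and Atp5g1 17.9% and 18.7%, so Atp5g3 was the main source in both groups. In the peripheral stalk and membrane part, 3 of 6 subunits were higher, and 0 of 6 under the sum scaling. Atp5j, coupling factor 6 (chromosome 11, 24286799 to 24322818), had 196 FPKM in WT and 164 in KO cells, the lowest ratio of a canonical subunit at −0.26 (p = 0.107 and q = 0.957 in the authors' deposited table). Its row shares this locus with Gabpa, the ETS subunit of GABP, which had 11.2 and 9.81 FPKM. Atp5h, subunit d, had 250.3 and 245.6 FPKM.

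**Figure D3:**
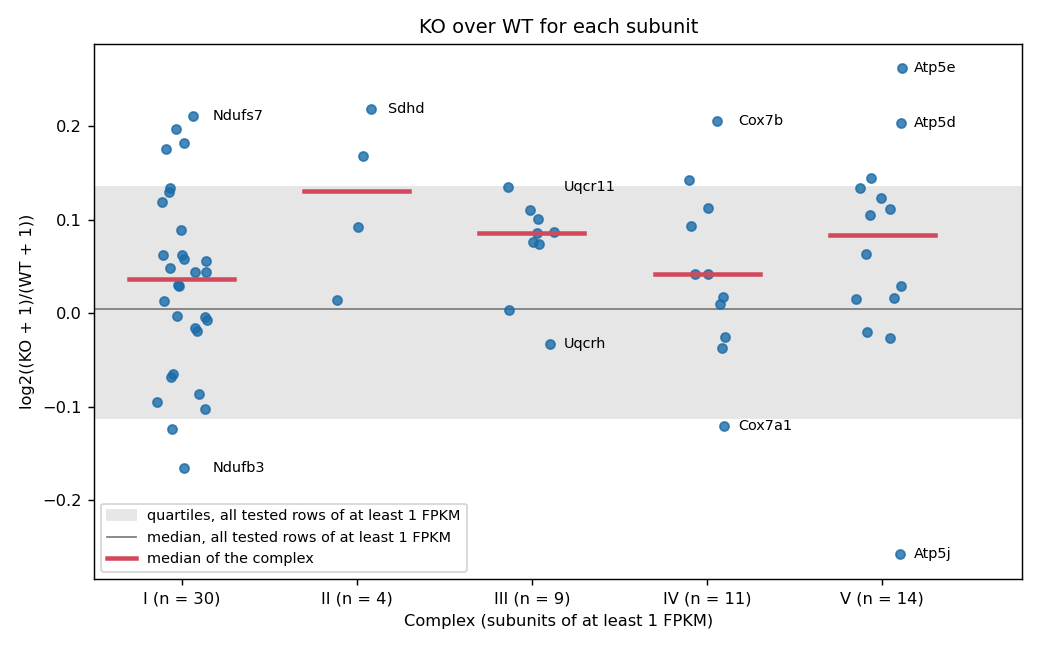
Ratio of KO over WT as log2((KO + 1)/(WT + 1)) for each subunit of at least 1 FPKM (points) by complex, with the median of the complex (red bar) and the median and quartiles of all tested rows of at least 1 FPKM (line and grey band). As deposited the median of complex II lies highest at 0.13 (−0.032 under the sum scaling), and Atp5e at 0.26 and Atp5j at −0.26 are the farthest points.

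The symbol rule also took 5 names that are not canonical subunits, of which 4 had at least 1 FPKM. Atp5s, a factor related to ATP synthase by name, was the member with the smallest p (1.86 FPKM in WT and 2.75 in KO cells, p = 0.011 and q = 0.418 in the authors' deposited table) and had a ratio of 0.39. This is the highest of 4 rows of Atp5s on 1 locus, taken by the tie rule that was chosen after seeing the values. Of the others, 1 was higher in KO cells (0.760 and 0.982 FPKM) and 2 were lower (0.720 and 0.383, 0.579 and 0.486), and the 4 rows summed to 3.92 and 4.60 FPKM. The ratio of the row taken ran from 0.18 to 0.56 over the alternatives, the ends being a pseudocount of 5 and the log2 fold of the authors' deposited table. Ndufv3-ps1, a pseudogene by its symbol, had the lowest ratio of all members of at least 1 FPKM at −0.35 (12.2 and 9.31 FPKM, p = 0.427 in the authors' deposited table), on a locus that it shares with Klhl12. Cox7a2l, which helps to join complexes III and IV, had 96.18 and 95.02 FPKM, and Atp5sl had 13.5 and 14.1. Members below 1 FPKM were Ndufb2 (1.11 in WT and 0.680 in KO cells), Ndufa12 (0.374 and 0.778), Ndufa10 (0.314 and 0.723), Cycs and Cox7a2l2 (0.629 and 0.923). None of these 5 was called, and each had p above 0.05 in the authors' deposited table.

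**Figure D4:**
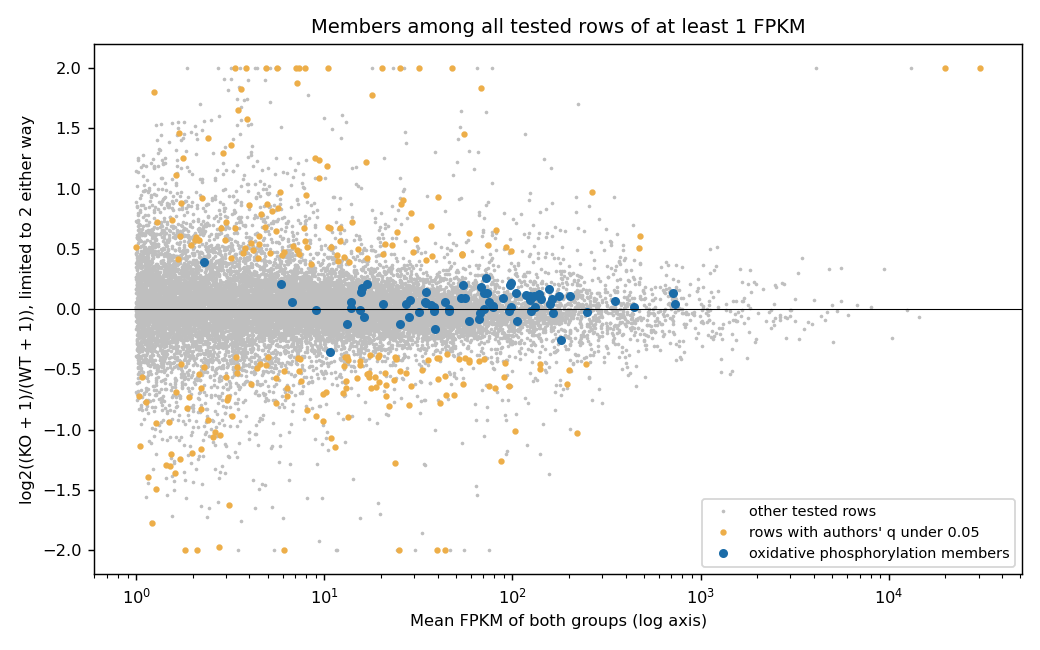
Ratio of KO over WT against mean FPKM (log axis) for all tested rows of at least 1 FPKM (grey), rows called by the authors at q under 0.05 (yellow) and the 72 members (blue), with ratios limited to 2 either way. The members lie between −0.35 and 0.39, among rows that were not called.

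Ribosomal proteins are the subunits of other large complexes. The share higher in KO cells was 46.0% of all tested rows of at least 10 FPKM and 51.1% of those of at least 1 FPKM. Of 68 mitochondrial ribosomal proteins of at least 1 FPKM, 29 (42.6%) were higher in KO cells and the median was −0.029. Of 61 cytosolic ribosomal proteins 19 (31.1%) were higher with a median of −0.0299. Under the sum scaling these medians were −0.18 and −0.17. Neither group held a call, and 3 and 2 of them had p under 0.05 in the authors' deposited table. For all tested rows, 1.05% were called and 6.0% had p under 0.05 before adjustment. With 1 pooled value per group the difference between these groups and the oxidative phosphorylation members has no test.

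Genes that serve the same pathway were described from lists of assembly factors, fuel enzymes, carriers and regulators. Of 113 with a tested row, none was called in the authors' deposited table, and 5 had p under 0.05 before adjustment, 4 of them higher. Among all tested rows 1.05% were called, 6.0% had such a p and 3.25% had it as higher. Of 110 with at least 1 FPKM, 61 were higher and 49 lower, with a median of 0.011 (−0.14 under the sum scaling), close to the 51.1% higher and the median of 0.0046 of all tested rows of that level. The lists' medians ran from −0.10 for regulators to 0.081 for other electron entry and coenzyme Q, and from −0.26 to −0.063 under the sum scaling.

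Enzymes that feed electrons into the chain were more often higher as deposited, which the sum scaling turns for each list. In the list of other electron entry and coenzyme Q synthesis, 13 of 17 were higher with a median of 0.081 (−0.063), led by Etfb, a subunit of the electron transfer flavoprotein (28.4 FPKM in WT and 36.1 in KO cells, p = 0.0176 in the authors' deposited table). In the citric acid cycle 9 of 13 were higher, with a median of 0.041 (−0.12). Suclg2, a subunit of succinyl-CoA ligase, had the smallest p of that list (159 and 145 FPKM, p = 0.144 in the authors' deposited table). For pyruvate entry 8 of 11 were higher with a median of 0.062 (−0.092), while Pdp2, a phosphatase that activates pyruvate dehydrogenase, was lower (10.7 and 8.43 FPKM, p = 0.0171 in the authors' deposited table).

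Assembly factors showed no common direction. For complex I, 6 of 13 were higher and the median was −0.046 (−0.19), although Ndufaf5 had the smallest p (16.9 FPKM in WT and 22.2 in KO cells, p = 0.0086 and q = 0.366 in the authors' deposited table). The farthest point of the list, Nubpl, which delivers iron-sulfur clusters to complex I, had 5.91 and 11.7 FPKM with p = 0.281 in the authors' deposited table. For complexes II and III 4 of 9 were higher (median −0.022, and −0.18 under the sum scaling), and Uqcc1 had the smallest p (29.4 and 35.0 FPKM, p = 0.0568 in the authors' deposited table). For complex IV 10 of 16 were higher (median 0.011, and −0.14 under the sum scaling), and the smallest p was that of a row that holds Cmc2 and Cenpn together (35.1 and 41.4 FPKM, p = 0.125 in the authors' deposited table), so Cmc2 has no value of its own. Of 4 genes for ATP synthase assembly and inhibition 3 were higher and 0 under the sum scaling, and Atpif1, which inhibits ATP synthase, was lower at 36.8 and 33.8 FPKM (p = 0.318 in the authors' deposited table). Among carriers 2 of 6 were higher (median −0.020, and −0.18 under the sum scaling), and Slc25a4, an exchanger of ADP and ATP, had 114 and 134 FPKM (p = 0.0358 in the authors' deposited table).

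Of 7 biogenesis regulators of at least 1 FPKM 2 were higher, and the median was −0.10 (−0.26 under the sum scaling). Both include a row that Esrra shares with Prdx5, the lowest of the list at −0.29, and Gabpa, whose locus Atp5j shares. Nrf1, which encodes NRF-1, had 21.93 FPKM in WT and 20.004 in KO cells. Esrra, the estrogen-related receptor alpha, has no value of its own, since its row also holds Prdx5 (109 and 89.2 FPKM together, p = 0.078 in the authors' deposited table), and Gabpa was lower as given above. Ppargc1b, a coactivator of these factors, had the smallest p of the list and was higher (1.88 and 2.35 FPKM, p = 0.0221 in the authors' deposited table), and Ppargc1a had no tested row under its symbol. In the list for expression and upkeep of mitochondrial DNA, 4 of 14 were higher and the median was −0.097 (−0.25 under the sum scaling). Tfam, which packages that DNA and starts its transcription, had 21.9 and 19.9 FPKM, and Mterf3 had the smallest p of that list (23.45 and 19.97 FPKM, p = 0.192 in the authors' deposited table). No regulator passed the test.

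**Figure D5:**
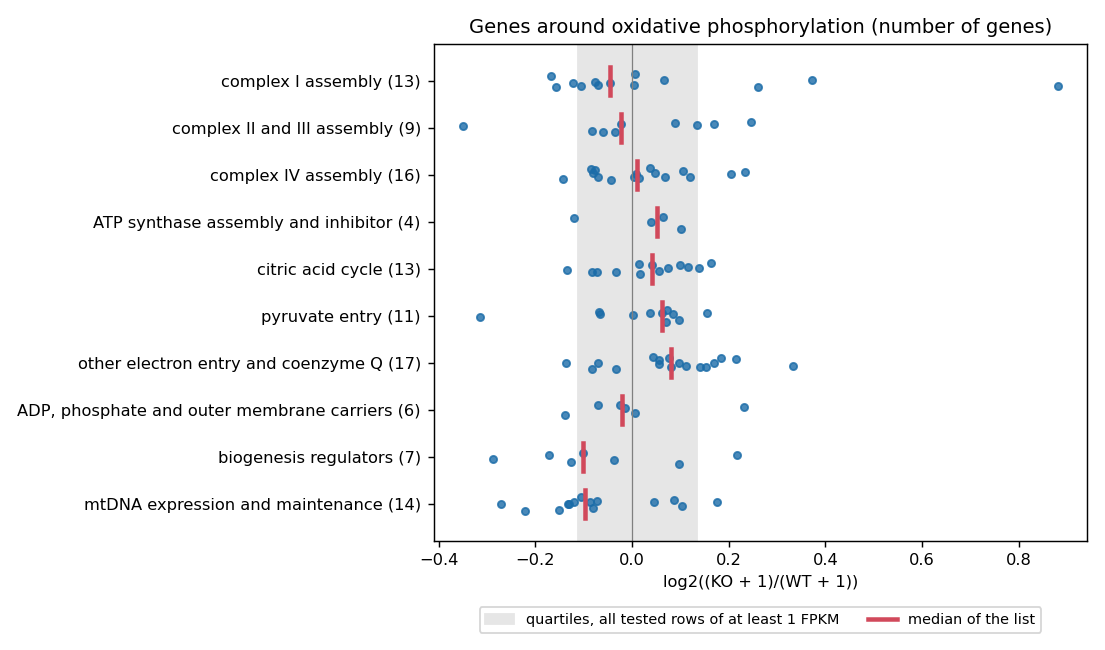
Ratio of KO over WT for genes of at least 1 FPKM (points) in 10 lists around oxidative phosphorylation, with the median of each list (red bar) and the quartiles of all tested rows of at least 1 FPKM (grey band). The medians of biogenesis regulators and of mitochondrial DNA expression lie lowest, near −0.10, and that of other electron entry and coenzyme Q highest, at 0.081 as deposited (−0.063 under the sum scaling). The lowest point of the biogenesis regulators is a row that Esrra shares with Prdx5.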

How the data were processed

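Strand-specific libraries were made from total RNA by the dUTP method, per the labels' protocols. Per the submitters' processing notes, the build was rn6 and the tools were Cuffdiff 2.2.1.3, Cufflinks 2.2.1 and TopHat, whose version is listed as 0.9. Annotation, options and any use of strand in counting: not given in the sources used here. Per the file headers, the deposited table holds FPKM with 1 pooled value per group, a log2 fold, Cuffdiff's test statistic (a score, not used here), a p-value and a q-value. Decimal commas were read as points. Cuffdiff shares reads between overlapping or similar transcripts, so values of loci that carry several genes, of near-identical copies and of short loci are uncertain.

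limma on values per sample had been foreseen, but the table has none, so the authors' q, equal to Benjamini-Hochberg values over 26459 tested rows when recomputed, is the only test. Of 77 members, 72 had a mean of at least 1 FPKM. Ties in locus length went to the row with the higher mean (9 members), a choice made after seeing the values. Ratios used a pseudocount of 1. The members and lists were chosen with earlier results of these data known. Named genes are the 2 most abundant and the largest changes of each complex, p under 0.05, the core of complex I, all of complex II, Cyc1, Cycs, paired forms, and the smallest p of each list. Any further gene was picked with its values in view. The values of 1 core subunit of complex I are in the counts and medians but are not reported here by themselves. Members were matched to RefSeq (GRCr8) by symbol or synonym in 76 of 77 cases. The median step was tested on simulated data. For calls, only the adjustment of p was checked, on p-values set by hand. Python 3.11.15, pandas 2.3.3, NumPy 2.4.6, SciPy 1.17.1 and matplotlib 3.10.9 were used.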

Additional observations from a re-analysis of the deposited data

How the results depend on the processing

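Binomial intervals over genes served to mark a value as moved. They take genes as independent draws and measure no spread between samples. Most alternatives also reuse nearly the same ratios, so staying within the intervals is no evidence for a difference between the groups. The share of members higher in KO cells (70.8%) and their median of 0.052 stayed within these intervals under 15 of 18 alternatives. Both moved when both groups were brought to the same sum of FPKM, to 13.9% and −0.11, with loci under 300 bp left out of that sum, to 41.7% and −0.020, and with the row that differs most left out, to 34.7% and −0.036. With the 3 rows that differ most left out they were 70.8% and 0.050. These last 3 settings, the tie rule, and leaving out symbols that are not subunits, rows away from their RefSeq neighbours or loci shared with another gene were chosen after seeing the data. Of the 4 rescalings, the medians of complexes I and IV were below 0 under 3, those of complexes III and V under 2 and that of complex II under 1. No member was called with q adjusted over rows of at least 1 or 5 FPKM, at q under 0.1, on the most abundant row of each symbol or over all 106 tested rows of the symbols, and 2 had p under 0.05 before adjustment. The pathway lists had 0 calls at q under 0.1 and 5 genes with p under 0.05 before adjustment, where 6.0% of all tested rows had such a p. For Atp5c1 the authors' log2 fold (0.009) differed from the ratio of its FPKM values by over 0.01, the only member where it did. No paired analysis was possible because the deposited FPKM columns combine the 3 samples of a group. A replicate block and leaving out replicates were not run for that reason, and read depth is unknown.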

Other observations

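Several symbols are spread over more than 1 row, and the row chosen sets the level. Cox6b1, a subunit of complex IV, had 13.9 FPKM in WT and 14.0 in KO cells on its longest locus (chromosome 1, 89081395 to 89082465), but 249 and 269 FPKM on a locus of 489 bp on chromosome 2 (211337194 to 211337683). Uqcrb of complex III had 27.9 and 29.4 FPKM on chromosome 7 (71264518 to 71266151) and 46.6 and 43.9 on a locus of 487 bp on chromosome 1 (94718404 to 94718891), so the direction of its difference depends on the row. None of these rows was called. The genes that flank a member in RefSeq (5 on either side, GRCr8) were looked up in the table for the 72 members with at least 3 such genes listed. For Ndufa13 (402 bp) and Ndufs5 (474 bp) of complex I and for Cox7a2l2 (480 bp), no flanking gene lay within 2 Mb of the row, while each of the rest had at least 1. Ndufa13 stood at 61.0 and 56.8 FPKM and Ndufs5 at 43.1 and 44.8. What these short rows hold was not tested for want of an rn6 sequence.

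The rows of 11 members carry the locus of at least 1 other gene as well. Ndufs1 shares its locus with Eef1b2 (chromosome 9, 69919560 to 69956240), and Ndufb7 with Tecr. Ndufa7 shares a row with Cd320 and has no value of its own (68.2 and 64.2 FPKM). Of 77 canonical subunits looked for, Ndufs6, Ndufa1, Ndufb1, Cox7a2 and Atp5f1 had no tested row under these symbols.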
